A study of Mus musculus with 4 samples.

Results

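Integrins are the cell-surface receptors, and laminins the basement membrane proteins, through which skin cells hold on to their surroundings. The 34 integrin and laminin subunit genes described here are those whose annotated symbol names an integrin alpha subunit, an integrin beta subunit or a laminin alpha, beta or gamma chain; they are 34 of 19532 genes on the array and are read by 77 of its 41174 probes. Probes of a gene were averaged. On each of 4 two-colour arrays, Tsk1/+ mouse skin RNA carried Cy3 and the RNA of a cell-line reference, UMR in the labels and the same on all arrays, carried Cy5. Tsk1/+ mice are heterozygous for a mutation in the fibrillin-1 gene and serve as a model of scleroderma; the titles call them transgenic. The labels give the tissue and the genotype but no age, sex, strain, treatment, skin site or number of animals, and the samples used here include no wild-type skin, so an effect of the mutation cannot be assessed here.

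An integrin is a pair of 1 alpha and 1 beta subunit that spans the cell membrane and binds matrix or another cell. Laminins are cross-shaped trimers of 1 alpha, 1 beta and 1 gamma chain that form the sheet of a basement membrane. In skin, basal keratinocytes are bound to the basement membrane by hemidesmosomes, which pair the integrin of Itga6 and Itgb4 with a laminin that holds the chains of Lama3 and Lamb3, while fibroblasts, muscle, vessels and leukocytes use other subunits. Loss of hemidesmosome integrins or of that laminin causes blistering skin disease.

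The values are log2 ratios with the sign turned, so that a positive ratio means more RNA in Tsk1/+ skin than in the reference. The labels do not state the numerator. The direction is the likely one, read from a list of 14 genes of cornified epidermis. Their median lay, as deposited, between -6.29 and -5.32 on the 4 arrays, against a median of 0 over all genes. The arrays are named by their title numbers, 1-1, 1-2, 2-1 and 2-2, and correlated at 0.867 to 0.918 (Pearson's r across 19532 genes, which are not independent replicates). Between 21.4% and 29.1% of the values of an array are an exact 0, and such a gene is said to be listed at 0. With these zeros included, between 50.9% and 59.5% of the values of an array are ones that it gives to at least 50 probes. All arrays have the same dye orientation, so a dye effect that repeats on each array and a true difference cannot be told apart. Nothing says that the 4 samples are separate animals, and the p-values rest on a spread between samples that may be technical. All 5 basal keratinocyte markers were higher in skin, a direction that the choice of sign largely sets and that is no check of the label, with Krt5 at 4.68 ± 0.46 and Krt14 at 4.39 ± 0.43 (mean log2 ratio ± SD, n = 4, here and wherever ± is used).

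A gene passed where limma's moderated test across all genes gave a Benjamini-Hochberg adjusted p below 0.05 and the mean log2 ratio was at least 1 in size. Of the 34 subunits, 15 were higher in Tsk1/+ skin than in the reference, 3 were lower and 16 did not pass. Over all 19532 genes, 11.0% were higher and 7.52% lower, against 44.1% and 8.82% of the subunits. The counts by class and by marker list below stand beside the same 11.0% and 7.52%. The median over the subunits' mean ratios was 0.78, against 0.02 over all genes. By kind, 6 of 10 laminin chains were higher and 1 lower, 7 of 16 integrin alpha subunits were higher and 2 lower, and 2 of 8 beta subunits were higher and none lower. As the RNA came from whole skin, more cells of a type and more RNA per cell cannot be told apart in any of these ratios.

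**Figure D1:**
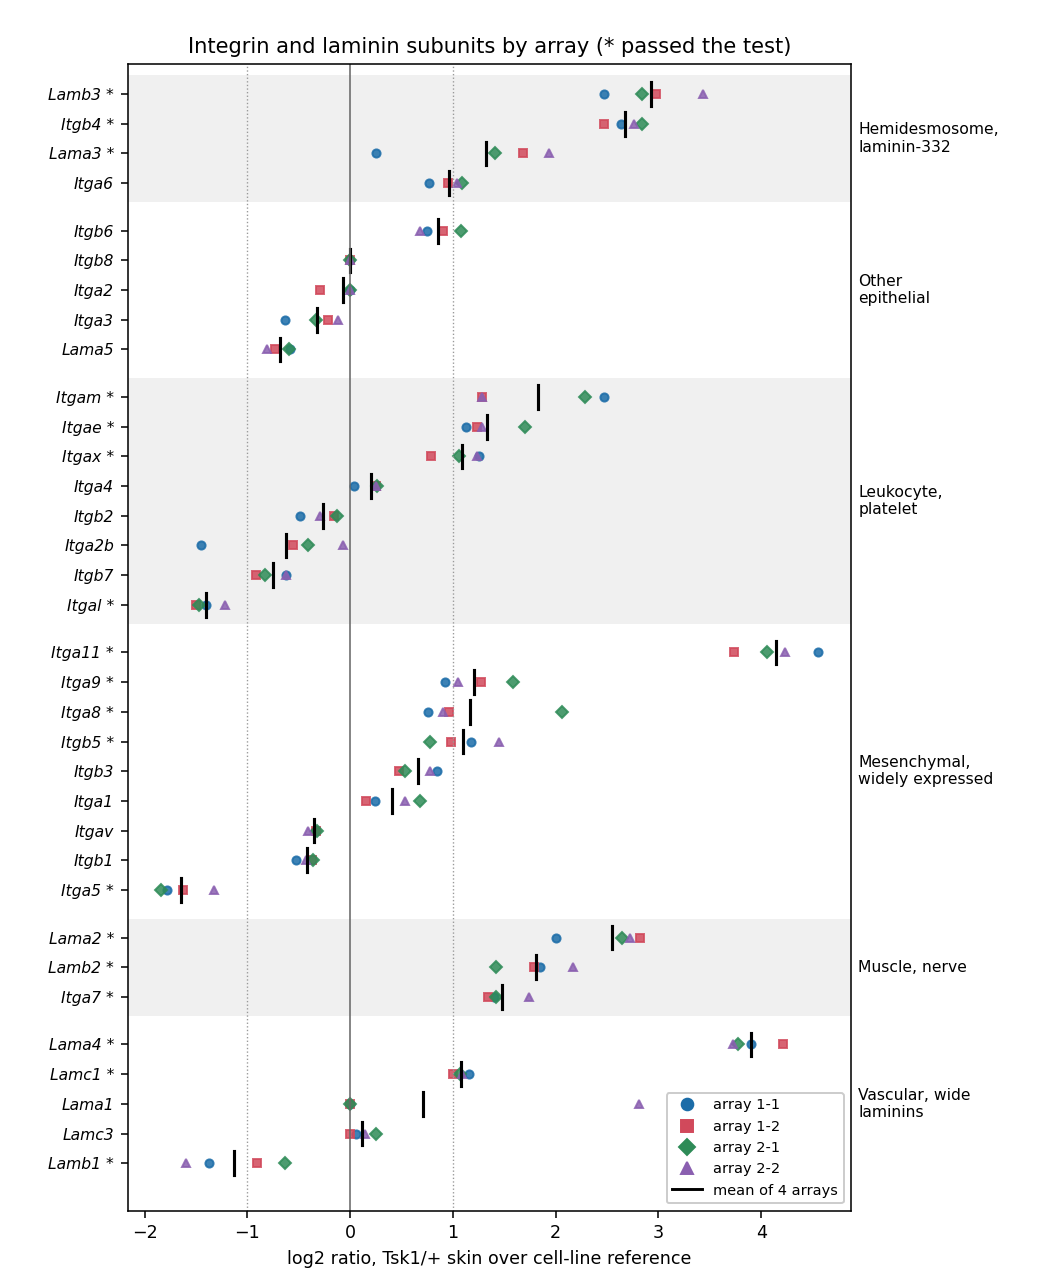
Log2 ratio of Tsk1/+ skin over the cell-line reference (horizontal axis) for each of 34 subunits, grouped by class; points are the 4 arrays, black bars their mean, dotted lines a ratio of 1 in size, and an asterisk a gene that passed the test. Itga11 and Lama4 lie farthest to the right, and Itga5, Itgal and Lamb1 on the left with all 4 arrays below 0.

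The subunits of the hemidesmosome and its laminin were mostly higher in skin: Itgb4, Lama3 and Lamb3 passed, and Itga6 stayed just under the minimum size. As these are subunits of basal keratinocytes, the choice of sign from epidermal genes largely sets this direction. Itgb4, whose long cytoplasmic tail binds the keratin-linking protein plectin, stood at 2.64, 2.47, 2.84 and 2.76 on arrays 1-1, 1-2, 2-1 and 2-2 (2.68 ± 0.16, a 6.40-fold ratio, adjusted p = 0.000370). All arrays were high and close together. Its partner Itga6 stood at 0.77, 0.95, 1.09 and 1.04, above 0 on every array (0.96 ± 0.14, adjusted p = 0.00158), and did not pass because its mean was below 1. It did pass without array 1-1, where its mean was 1.03 (adjusted p = 0.00431), and with the median over its probes, 1.11 (adjusted p = 0.00316). Its 1 probe on a RefSeq mRNA accession averaged 0.51 (adjusted p = 0.0116), the lowest of its 3 probes.

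Lamb3, the beta chain of the hemidesmosome laminin, was measured by 1 probe at 2.47, 2.98, 2.84 and 3.43 (2.93 ± 0.40, 7.62-fold, adjusted p = 0.00124). Every array was at least 2.47 above the reference. Lama3, the alpha chain of the same trimer, stood at 0.25, 1.68, 1.41 and 1.93 (1.32 ± 0.74, adjusted p = 0.0465), with array 1-1 well below the others. One of its probes read an exact 0 on array 1-1 and 3.36, 3.24 and 3.48 on the next 3, and the other lay between -0.42 and 0.50 on all 4. Without array 1-2, 2-1 or 2-2 the adjusted p of Lama3 was 0.172, 0.165 and 0.149. With array values that are 0 or repeated left out, its mean was 3.36 (adjusted p = 4.25e-07). That setting dropped every value of the low probe and the 0 on array 1-1. It therefore rests on 3 values of 1 probe.

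Of the other subunits of epithelial cells none passed: these are Itgb6, Itgb8, Itga2, Itga3 and Lama5. Itgb6, a partner of Itgav that activates latent TGF-beta, was the highest at 0.75, 0.90, 1.08 and 0.67 (0.85 ± 0.18, adjusted p = 0.00356), above 0 on every array. It passed with exact zeros left out (mean 1.17, adjusted p = 0.000531) and with the median over its probes (adjusted p = 0.0289). Lama5, the chain of the basement membrane laminin found under most epithelia, stood at -0.58, -0.73, -0.59 and -0.81 (-0.68 ± 0.11, adjusted p = 0.00204), below 0 on every array but short of the minimum size. Itga3, the keratinocyte receptor of both of these skin laminins, stood at -0.63, -0.21, -0.33 and -0.12 (-0.32 ± 0.22, adjusted p = 0.0802). Itga2, a collagen receptor of basal keratinocytes, was listed at 0 on 3 arrays and stood at -0.29 on array 1-2, and both probes of Itgb8 were listed at 0 on all 4 arrays.

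Among leukocyte and platelet subunits, 3 of 8 were higher in skin, 1 was lower and 4 did not pass. Over all genes, 11.0% were higher and 7.52% lower. The 3 measured alpha subunits that pair with Itgb2, the common beta chain of leukocytes, went different ways. Itgam, which marks macrophages, monocytes and neutrophils, stood at 2.47, 1.28, 2.28 and 1.28 (1.83 ± 0.64, adjusted p = 0.0129); arrays 1-1 and 2-1 were high, and without array 2-1 the adjusted p was 0.0625. Itgax, which marks dendritic cells and some macrophages, stood at 1.25, 0.79, 1.06 and 1.24 (1.08 ± 0.21, adjusted p = 0.00300). Itgal, the alpha subunit of the lymphocyte adhesion receptor LFA-1, stood at -1.41, -1.50, -1.47 and -1.22 (-1.40 ± 0.13, adjusted p = 0.000647), below every array of Itgam and Itgax. Itgb2 itself stood at -0.49, -0.16, -0.13 and -0.30 (-0.27 ± 0.16, adjusted p = 0.0599).

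Itgae, which pairs with Itgb7 and holds T cells and some dendritic cells to E-cadherin on epithelial cells, stood at 1.12, 1.23, 1.70 and 1.28 (1.33 ± 0.25, adjusted p = 0.00271). Its partner Itgb7 stood at -0.62, -0.91, -0.83 and -0.63 (-0.75 ± 0.15, adjusted p = 0.00296), so the arrays of the 2 subunits lay on opposite sides of 0. Itga4, a homing receptor subunit of lymphocytes, averaged 0.20 ± 0.11 (adjusted p = 0.0472). Itga2b, the platelet fibrinogen receptor subunit, averaged -0.62 ± 0.59 (adjusted p = 0.157).

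Of 12 general leukocyte markers, 4 were higher and 1 lower in skin, beside 11.0% and 7.52% of all genes. Their array medians ran from 0.03 to 0.30. The markers of macrophages and antigen-presenting cells C1qa (5.14 ± 0.52), Cd74 (3.19 ± 0.48) and Csf1r (1.53 ± 0.29) were among the higher. S100a8, of neutrophils and monocytes, was the 1 marker that was lower (-1.60 ± 0.26), while Ptprc, which encodes CD45 of all leukocytes, stood at -0.39 ± 0.16 and the T cell gene Cd3e at -0.36 ± 0.46. The part of these cells, in skin or in the reference, in the leukocyte integrin ratios was not tested. Of 6 platelet markers none was higher and 2 were lower, beside the same shares of all genes.

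With all probes averaged, the mesenchymal and widely expressed integrins ranged from the highest subunit of all to the lowest. Of the 9, 4 were higher, 1 was lower and 4 did not pass, beside 11.0% higher and 7.52% lower over all genes. Itga11, the fibrillar collagen receptor of fibroblasts, stood at 4.56, 3.74, 4.06 and 4.23 (4.15 ± 0.34, 17.7-fold, adjusted p = 0.000544), and no array of any other subunit except Lama4 reached its lowest value. Itga5, the fibronectin receptor subunit, stood at -1.79, -1.63, -1.85 and -1.33 (-1.65 ± 0.23, adjusted p = 0.00135), below 0 on every array. Their shared partner Itgb1, the beta subunit of most matrix-binding integrins, stood at -0.53, -0.38, -0.36 and -0.43 (-0.43 ± 0.08, adjusted p = 0.00292). It lay below 0 on every array but short of the minimum size. Of its 3 probes, 1 was an exact 0 on all arrays, and the other 2 averaged -0.65 and -0.63.

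Itga9, a receptor for tenascin, averaged 1.20 ± 0.29 (adjusted p = 0.00491). Itga8, known in contractile mesenchymal cells, stood at 0.75, 0.96, 2.06 and 0.91 (1.17 ± 0.60, adjusted p = 0.0365), with array 2-1 apart from the rest. Its call ended without any 1 of the arrays (adjusted p = 0.0813, 0.118 and 0.104 without 1-1, 1-2 and 2-2, and a mean of 0.87 without 2-1). Of the subunits that bind vitronectin and latent TGF-beta, Itgb5 was higher (1.10 ± 0.29, adjusted p = 0.00593), a call that ended without array 2-2 (mean 0.98). Itgb3 (0.66 ± 0.18, adjusted p = 0.00701) and Itgav, the alpha partner of both (-0.36 ± 0.04, adjusted p = 0.00147), did not reach the minimum size. Itga1, a collagen receptor, averaged 0.40 ± 0.25 (adjusted p = 0.0593). Of 7 dermal fibroblast markers, 4 were higher and none lower, beside 11.0% and 7.52% of all genes. Their array medians ran from 1.46 to 1.87, and Pdgfra stood at -0.57 ± 0.33. The part of fibroblasts in these integrin ratios was not tested.

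All 3 subunits known from muscle and nerve were higher, beside 11.0% of all genes. Lama2, the alpha chain of the laminin around muscle fibres and Schwann cells, stood at 2.00, 2.82, 2.65 and 2.72 (2.55 ± 0.37, 5.84-fold, adjusted p = 0.00143). Lamb2, its beta chain at muscle and nerve, stood at 1.85, 1.78, 1.42 and 2.16 (1.80 ± 0.30, adjusted p = 0.00199). Itga7, the laminin receptor of muscle, stood at 1.40, 1.34, 1.42 and 1.74 (1.48 ± 0.18, adjusted p = 0.00103). No array of the 3 genes lay below 1.34. All 7 skeletal muscle markers were higher, with array medians from 5.48 to 6.58, and all 3 measured Schwann cell markers were higher, with array medians from 1.74 to 2.64; the part of these tissues in the 3 ratios was not tested.

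The remaining laminin chains spanned nearly the whole range. Lama4, the alpha chain of vessel, fat and muscle basement membranes, stood at 3.90, 4.22, 3.77 and 3.73 (3.90 ± 0.22, 15.0-fold, adjusted p = 0.000338), the highest laminin on every array. Lamc1, the gamma chain shared by most laminins, stood at 1.16, 1.00, 1.07 and 1.09 (1.08 ± 0.07, adjusted p = 0.000403), and the tight arrays make it a call just above the minimum size. Lamb1, the beta chain that joins Lama4 or Lama5 with Lamc1, stood at -1.37, -0.91, -0.64 and -1.60 (-1.13 ± 0.44, adjusted p = 0.0171), below 0 on every array and so on the other side of the reference from both Lama4 and Lamc1. Its call ended without array 1-1, 1-2 or 2-2 (adjusted p = 0.0748, 0.0674 and 0.0518). Lama1, the embryonic alpha chain, was listed at 0 on 3 arrays and stood at 2.81 on array 2-2, and Lamc3 averaged 0.11 ± 0.11 (adjusted p = 0.184). Of 7 endothelial markers, 5 were higher and none lower, beside 11.0% and 7.52% of all genes. Their array medians ran from 1.74 to 2.09.

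Set side by side, 3 of the classes kept their order on each array. The median of the 4 hemidesmosome subunits was 1.62, 2.08, 2.13 and 2.35 on arrays 1-1, 1-2, 2-1 and 2-2, that of the 9 mesenchymal integrins was 0.75, 0.47, 0.68 and 0.77, and that of the 8 leukocyte and platelet integrins was -0.23, 0.05, 0.07 and 0.09. The hemidesmosome median exceeded the leukocyte median by 2.05 ± 0.17 and the mesenchymal median by 1.37 ± 0.34, and the mesenchymal median exceeded the leukocyte median by 0.68 ± 0.23, each on 4 of 4 arrays. The last difference was smaller with the median over probes (0.22 ± 0.30, and below 0 on array 2-2) and with exact 0 and repeated values left out (0.36 ± 0.35). These class medians are a description and carry no test, and the classes are small and mixed. The choice of sign from epidermal genes largely sets which end of the order the hemidesmosome class takes. With all probes averaged, the mesenchymal class holds both the highest and the lowest subunit. With probes on RefSeq mRNA accessions only, Lama4 was the highest (5.20, against 4.15 for Itga11). The median of the 3 muscle and nerve subunits, with all probes averaged, was 1.85, 1.78, 1.42 and 2.16 in the same order of arrays. It lay above the hemidesmosome median on array 1-1 and below it on the others.

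**Figure D2:**
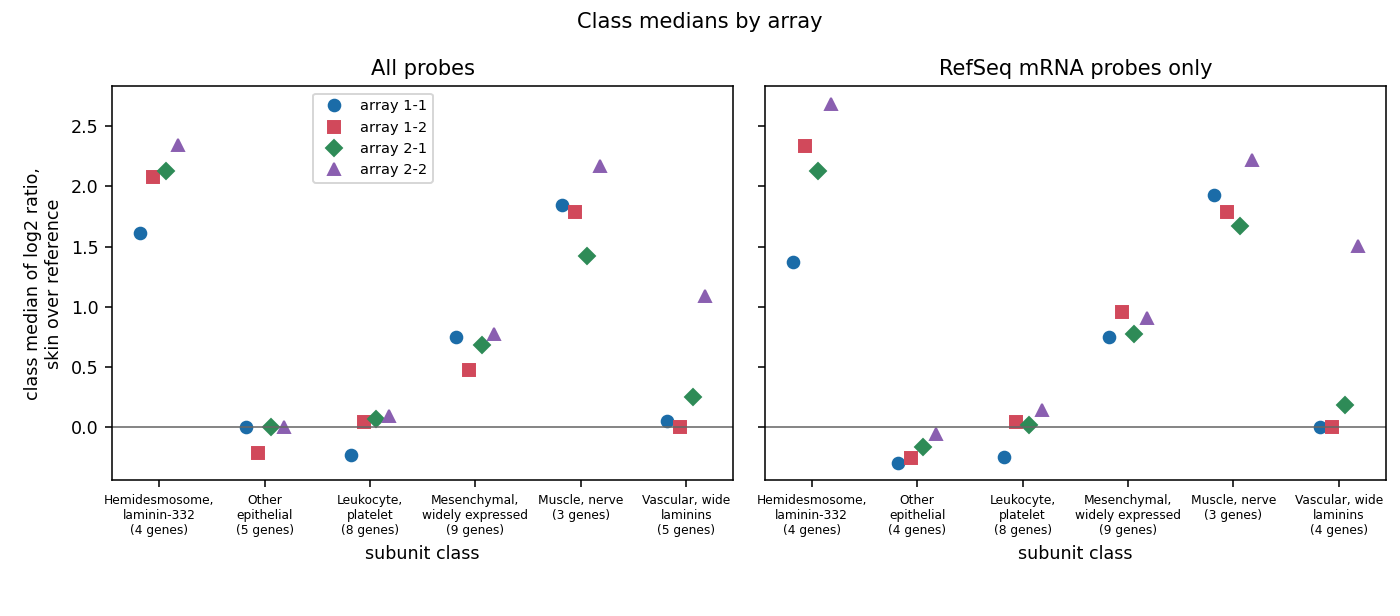
Median log2 ratio of Tsk1/+ skin over reference (vertical axis) of each subunit class on each of 4 arrays, with all probes of a gene averaged (left) and with probes on RefSeq mRNA accessions only (right). In both panels the hemidesmosome class lies above the mesenchymal class and that above the leukocyte class on every array.

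Probes of 1 gene often disagreed, and averaging them lowered several of the largest ratios. The 3 Itgb4 probes averaged 3.87, 4.06 and 0.11, and the 4 Lama4 probes 5.91, 4.60 and 5.11, with the fourth near 0, over the 4 arrays. In both genes the low probe is annotated to an AK accession, a cDNA clone that need not match the main transcript, and its values were 0 or repeated on many other probes of the array. Of the values of the 16 subunit probes on AK accessions, 90.6% were exact 0 or such repeated values, against 38.0% for the 54 probes on RefSeq mRNA accessions; over all named probes the shares were 80.7% of AK and 42.8% of RefSeq probe values. With RefSeq mRNA probes only, an alternative chosen after seeing the data, Itgb4 averaged 3.96, Lama4 5.20, Lama2 3.73 and Itgax 1.77, while Itga6 averaged 0.51, Itgav -0.85 and Itgb1 -0.64, each lower than with all its probes. In that alternative 15 of 32 measured subunits were higher and 3 lower, beside 12.4% and 8.78% of all genes. All 14 of the subunits called higher above that have such a probe stayed higher, and Itgb3 joined them (1.41, adjusted p = 0.000334).

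**Figure D3:**
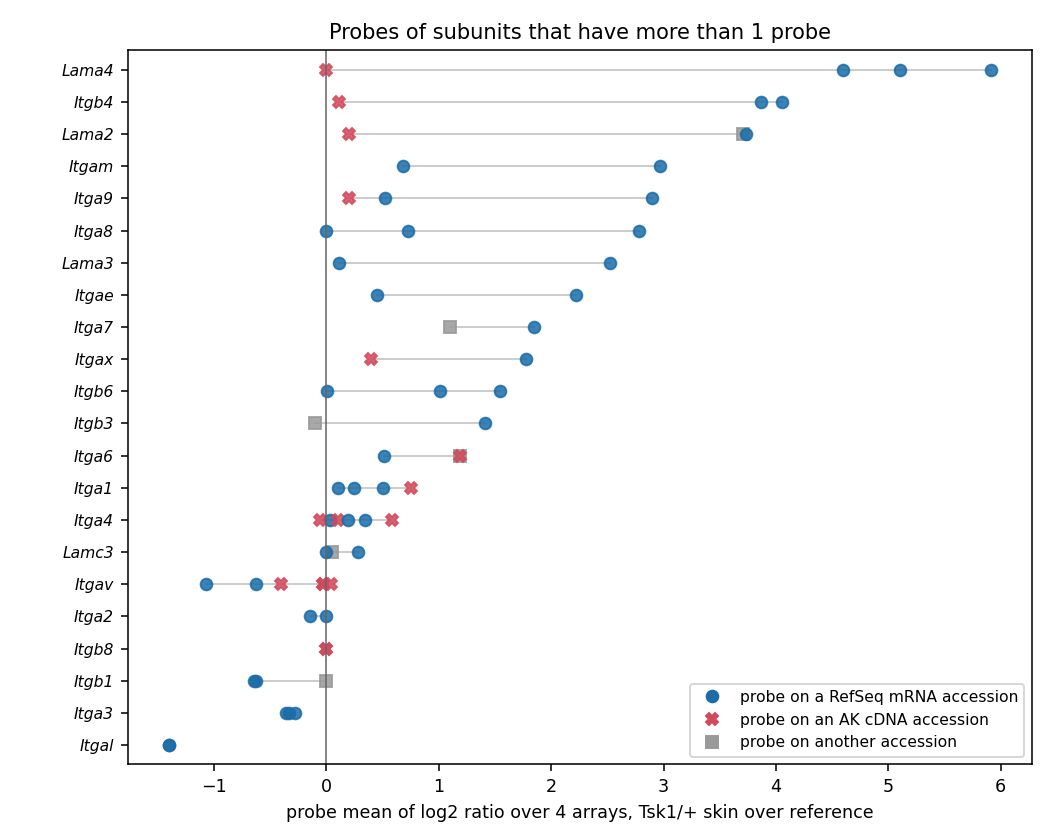
Mean log2 ratio of Tsk1/+ skin over reference over 4 arrays (horizontal axis) of each probe of the subunits with more than 1 probe; blue circles are probes on RefSeq mRNA accessions, red crosses on AK cDNA accessions and grey squares on others, and grey lines join a gene's lowest and highest probe. The AK probes of Lama4, Itgb4 and Lama2 lie near 0, far left of the other probes of those genes.

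Probes on RefSeq accessions disagreed too. Itga8 had probes at 2.78, 0.73 and 0.00, Itga9 at 2.89 and 0.52, Itgam at 2.97 and 0.68, and Itgae at 2.22 and 0.45. The ratios of these 4 genes are therefore those of an average and understate their brightest-ratio probe. With exact 0 and repeated values left out, 28 subunits could be tested, and 16 were higher and 3 lower, beside 22.6% and 15.1% of all genes. The 6 subunits with too few other values were Itga1, Itga2, Itga2b, Itgb8, Lama1 and Lamc3, none of which had passed.

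Upstream sequences are shown for the integrin with the highest ratio, for the leukocyte subunit with the highest ratio and for both lower subunits that have an entry, to set the ends of the range side by side. RefSeq promoters of the GRCm38.p6 build were matched by symbol for 22 of the 34 subunits, and the 250 bases before the annotated start were searched on both strands for the GC box GGGCGG, the AP-1 motif TGANTCA and the core GAGGAA of the myeloid factor PU.1. Each sequence runs 5′ to 3′ on the gene's strand. Capitals mark the GC box in Itga5 (chr15:103366792-103367041, minus strand) and Lamb1 (chr12:31265043-31265292, plus strand), and the PU.1 core in Itgam (chr7:128062390-128062639, plus strand). Itga11 (chr9:62677605-62677854, plus strand) holds no GC box and has no capitals. It does hold 1 PU.1 core, starting 38 bases before its start site. That core, the GC box of Itgam and the PU.1 cores of Itga5 and Lamb1 are left unmarked.
Itga11: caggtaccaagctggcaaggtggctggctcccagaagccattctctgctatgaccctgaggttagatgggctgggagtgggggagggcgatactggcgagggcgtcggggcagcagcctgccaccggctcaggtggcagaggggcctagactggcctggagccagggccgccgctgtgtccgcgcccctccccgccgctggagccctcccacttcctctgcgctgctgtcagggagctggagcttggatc
Itgam: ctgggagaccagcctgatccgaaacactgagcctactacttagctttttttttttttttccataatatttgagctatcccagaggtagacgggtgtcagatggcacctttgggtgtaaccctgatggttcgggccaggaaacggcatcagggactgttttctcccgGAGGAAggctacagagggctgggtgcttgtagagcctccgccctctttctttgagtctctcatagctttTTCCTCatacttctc
Itga5: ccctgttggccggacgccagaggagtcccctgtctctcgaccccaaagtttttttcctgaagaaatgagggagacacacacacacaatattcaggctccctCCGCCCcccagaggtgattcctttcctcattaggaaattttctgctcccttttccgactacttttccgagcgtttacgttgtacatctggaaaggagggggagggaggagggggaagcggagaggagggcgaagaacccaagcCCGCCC
Lamb1: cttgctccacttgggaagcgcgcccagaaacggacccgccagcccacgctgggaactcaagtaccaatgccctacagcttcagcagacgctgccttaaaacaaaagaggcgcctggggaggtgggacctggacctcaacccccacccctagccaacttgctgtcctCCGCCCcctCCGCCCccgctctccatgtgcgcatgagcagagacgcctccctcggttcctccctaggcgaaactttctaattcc

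Itga5 and Lamb1, both lower in skin than in the reference, held 2 GC boxes each. Itgb5, which was higher, held 3, and of those that did not pass Lama5 held 4 and Itga3 held 3 at 1 of its starts. Of the 9 higher subunits with an entry, Itgam and Itgb5 held at least 1 GC box, and of the 11 that did not pass 4 did. Itgam held the PU.1 core 2 times, starting 84 and 15 bases before its start site, and 5 of the 9 higher subunits, both lower ones and 6 of the 11 that did not pass held it. Over all 32851 promoters of the table, 32.7% held the GC box, 23.3% the PU.1 core and 6.75% the AP-1 motif. These shares are per promoter, whereas a subunit was counted where any of its starts held the motif, so the 2 are not in like units. Itga3, Itgb6 and Lamb3 have 2 starts each and hold the PU.1 core at only 1. The AP-1 motif was in 1 of the 22, Itgax. The GC box and the PU.1 core do not overlap in the sequences shown, and a match of letters is a description and not a binding site.

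The other genes through which integrins and laminins work were read from lists written down together with the classes, and their counts stand beside the 11.0% higher and 7.52% lower over all genes. Of 10 partners of the hemidesmosome, 5 were higher and none lower. The choice of sign largely sets this direction too, and Krt5 and Krt14 are also among the basal keratinocyte markers. Col17a1, the collagen that spans the hemidesmosome, was highest (5.30 ± 0.55, adjusted p = 0.000739), followed by the basal keratins Krt5 and Krt14 given above. Col7a1, the collagen of the anchoring fibrils (3.72 ± 0.24), and Dst, which includes the plakin BP230 (1.81 ± 0.11), were the other two. Plec, which encodes plectin, stood at -0.46, 0.56, 0.79 and 0.33 (adjusted p = 0.415). Fras1 (0.15 ± 0.55) and Frem1 (-0.12 ± 0.25), proteins of the fetal basement membrane of skin, had the lowest ratios and did not pass. Frem2, of the same protein complex, stood at 1.68, 3.10, 4.18 and 0.64, above 0 on every array but too spread to pass (2.40 ± 1.56, adjusted p = 0.0671).

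**Figure D4:**
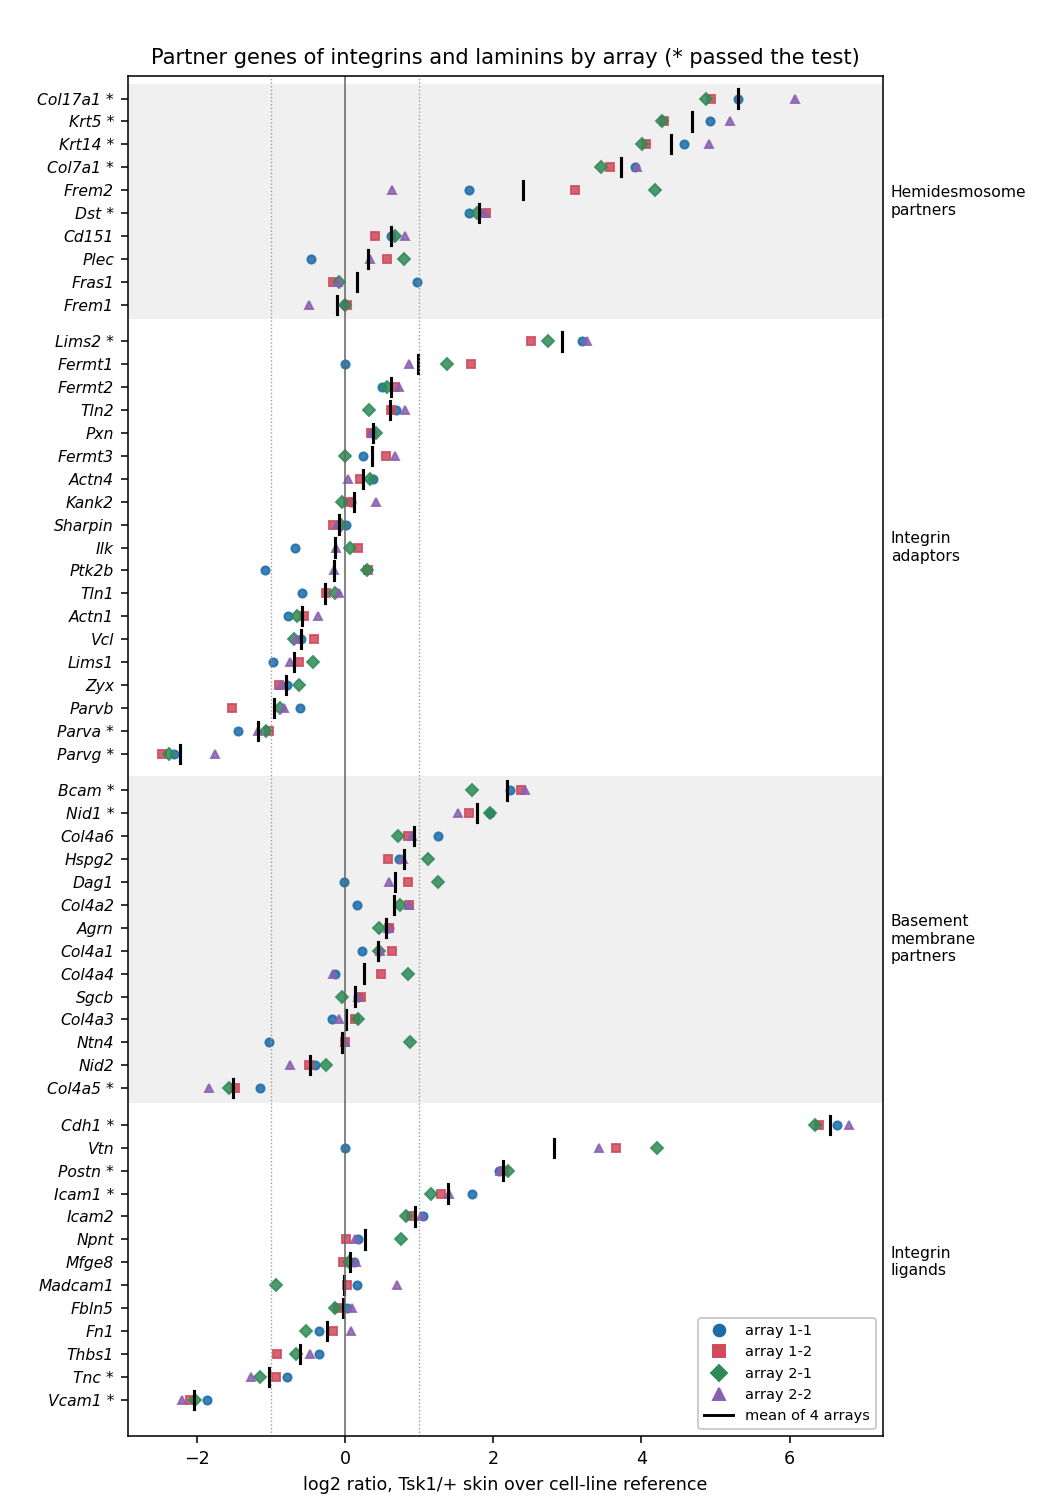
Log2 ratio of Tsk1/+ skin over reference (horizontal axis) for partner genes of integrins and laminins; points are the 4 arrays, black bars their mean, dotted lines a ratio of 1 in size, and an asterisk a gene that passed. Of 10 hemidesmosome partners 5 passed to the right, and of 19 integrin adaptors 1 passed to the right and 2 to the left.

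Of the 19 measured cytoplasmic adaptors that link integrins to actin, 1 was higher and 2 were lower, with a median of -0.14, beside 11.0% and 7.52% of all genes. With exact 0 and repeated values left out, 2 were higher and 4 lower. Lims2, the second PINCH adaptor, was higher (2.93 ± 0.36, adjusted p = 0.00104). Its paralogue Lims1 stood at -0.70 ± 0.23 and did not pass. Fermt1, the kindlin of keratinocytes, read 1.70, 1.38 and 0.86 on 3 arrays and an exact 0 on array 1-1 (adjusted p = 0.0939), without which it passed (1.31, adjusted p = 0.0358), and Fermt2, the kindlin of most other cells, averaged 0.62 ± 0.10. Parvg, the parvin of blood cells (-2.23 ± 0.32, adjusted p = 0.00140), and Parva, the widely expressed parvin (-1.18 ± 0.19, adjusted p = 0.00177), were lower, and Parvb stood at -0.96 ± 0.39; it passed with those values left out (-1.38, adjusted p = 1.47e-05).

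Of 14 basement membrane partners, 2 were higher and 1 was lower, near the 11.0% and 7.52% of all genes, with a median of 0.50. Bcam, a receptor for Lama5 (2.18 ± 0.33, adjusted p = 0.00152), and Nid1, which links laminin to collagen IV (1.77 ± 0.21, adjusted p = 0.000976), were higher. Bcam averaged 4.29 with exact 0 and repeated values left out. Col4a6 stood at 0.93 ± 0.23, Ntn4 at -1.03 on array 1-1, at 0.87 on array 2-1 and at an exact 0 otherwise, and Nid2 at -0.47 ± 0.20. Col4a5, a chain of the collagen IV network of epithelia, was lower (-1.52 ± 0.28, adjusted p = 0.00254).

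Of 13 integrin ligands measured, 3 were higher and 2 lower, beside 11.0% and 7.52% of all genes. Cdh1, E-cadherin and ligand of Itgae, had the highest ratio (6.54 ± 0.21, adjusted p = 0.000239), Postn, a matrix protein of fibroblasts, averaged 2.13 ± 0.05 (adjusted p = 0.000237), and Icam1, the ligand of Itgal and Itgam, was the third gene higher (1.39 ± 0.24). With exact 0 values left out, Postn averaged 4.25. Vtn, vitronectin, read 3.66, 4.21 and 3.42 on 3 arrays and an exact 0 on array 1-1 (adjusted p = 0.0734), without which it passed (3.76, adjusted p = 0.00652). Vcam1, the vascular ligand of Itga4 (-2.05 ± 0.14, adjusted p = 0.000435, and -3.07 with exact 0 values left out), and Tnc, tenascin-C and ligand of Itga9 (-1.04 ± 0.22, adjusted p = 0.00350), were lower, and Thbs1 stood at -0.61 ± 0.24. Fn1, the ligand of Itga5, averaged -0.25 ± 0.26 and did not pass (adjusted p = 0.202). The call of Tnc ended with the median over its probes (-0.88), in limma's test against a log2 ratio of 1 (treat), after averaging arrays that share their first title number, and without array 2-1, where its mean came just short of 1 in size, or 2-2 (mean -0.96), each of which left Vcam1 as the 1 lower ligand. With exact 0 and repeated values left out Tnc averaged -1.87.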

How the data were processed

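The authors deposited 1 processed value per probe and array, taken here as a log2 ratio of the 2 channels; how they handled background, normalization and centring, and which channel was the numerator, is not stated in the labels. The log2 scale was read from the values that an array repeats on many probes: of 3120 pairs among the 40 commonest values per array, 21 lay 2 times log2 of 2 apart (tolerance 0.001), and 2 and 4 lay at the same distance in natural log and log10. Signs were turned as the report describes.

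Of 41174 probes, 32664 have 1 gene symbol in the platform annotation, 45 several and 8465 none; only the first kind entered. Probes were averaged per gene, exact zeros included. Genes with values on at least 3 arrays were fitted in R 4.3.3 by limma 3.58.1, whose two-sided moderated test (eBayes) set each mean against 0, and p was adjusted by Benjamini-Hochberg over 19532 genes. A repeated value is one that an array gives to at least 50 probes. In simulated data for this comparison (19511 genes), 81 of 100 genes changed by 1.5 and 95 of 100 changed by 3 (log2) were recovered, with 2 false calls. The simulated noise was normal, held no exact zeros or repeated values, and no other gene was changed. These rates may therefore not hold for the deposited values. Alternatives changed the treatment of zeros and repeated values, the summary over probes, the normalization, the arrays included, the blocks and the call rule. Every subunit is named; of each partner list the 3 highest and 3 lowest genes are, and Col7a1, Dst, Frem2, Lims1, Icam1, Fn1 and the markers given were chosen after their values were seen. Members, classes and lists were chosen with earlier results of these data known. Figures were drawn with matplotlib 3.10.9.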

Additional observations from a re-analysis of the deposited data

Results flagged for a closer look

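In 6 genes and 2 class medians, 1 of the 4 arrays stood far from the other 3 by Dixon's gap test at its 95% critical value. In all, 64 groups were looked at. For normally distributed values, chance flags about 1 in 20 such groups. Where 3 arrays are tied at 0, any other value is flagged, so that rate does not hold. This was so for Itga2, Lama1 and the median of the other epithelial subunits. Class medians also share values with their genes. Array 1-2 stood apart for Itga2 (-0.295, listed at 0 on the others), and with it the median of the other epithelial subunits (-0.214). Array 1-1 stood apart for Itga4 (0.0373, against 0.249 to 0.264 on the others), for Fras1 (0.971, against -0.17 to -0.088) and for the median of the leukocyte and platelet subunits (-0.226, against 0.0457 to 0.0918). Array 2-1 stood apart for Itga8 (2.06, against 0.752 to 0.961). Array 2-2 stood apart for Lama1 (2.81, listed at 0 on the others) and Frem1 (-0.496, against 0 to 0.027).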

How the results depend on the processing

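Of 18 subunits that passed, 9 passed under all 17 alternatives that were run: Itga11, Itgb4, Lama4, Lama2, Lamb3, Lamb2, Itga7, Itga5 and Itgal. No tested subunit changed sign under them. The count of higher subunits lay between 12 and 15, and that of lower ones between 2 and 3, when each array was left out in turn. Over all genes, between 1987 and 2162 were then higher and between 1327 and 1467 lower. Against a log2 ratio of 1, limma's treat called 7 subunits higher and 2 lower (1338 and 694 of all genes, against 2150 and 1468 in the report), and with no minimum size 19 and 7 passed (4534 and 3870 of all genes). Besides treat, Lama3 lost its call with the median over probes, robust eBayes and arrays averaged by either title number (adjusted p = 0.0510, 0.0560, 0.102 and 0.154), Itga8 with the first of these and both averages (0.460, 0.103 and 0.0747), Itga9 with the median over probes (mean 0.54), and Itgam with averages by the second title number (0.119). Either title number as a random block changed no subunit's call. The correlation estimated within blocks was negative (-0.31 for the first number and -0.26 for the second), which narrows the standard errors. Of all genes, 2332 and 2304 were then higher, against 2150, so these blocks could hardly have removed a call. Leaving out exact zeros moved the class median of hemidesmosome subunits to 2.40 and that of other epithelial subunits to -0.31. Leaving out repeated values too, which drops genes, moved the medians to 3.03 and -0.34, of leukocyte and platelet subunits to 0.60, of mesenchymal integrins to 0.96 and of the vascular laminin chains to 1.08. The mesenchymal median was 0.15 with the median over probes. With RefSeq mRNA probes only it was 0.85, and that of other epithelial subunits -0.19. Without each array in turn, Fras1 ranged from -0.12 to 0.26, Frem1 from -0.17 to 0.01 and Ntn4 from -0.34 to 0.29; these reversals, at 0.009 for Frem1 without array 2-2, are of genes that never passed. No paired analysis was possible because all 4 arrays form 1 group. The causes of these changes were not tested. The number of arrays limits the precision, and spots at 0 or at repeated values limit what the low probes can show.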
